A study of Mus musculus with 8 samples.

Results

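The insulin-like growth factor (IGF) axis was described here by 8 genes, chosen by name from the gene table: the ligand Igf1, its receptor Igf1r and the 6 binding proteins Igfbp2, Igfbp3, Igfbp4, Igfbp5, Igfbp6 and Igfbp7. All 8 were found among the 55401 genes of the table, and all 8 were among the 15461 genes with enough counts to be tested. RNA was sequenced from 8 lines of mouse embryonic fibroblasts (MEFs) of the strain B6C3F1, 4 SLMAP3-/- and 4 wild type (WT), with 1 library per line and each line from a different embryo at E14.5. The deletion removed an exon of Slmap by the Cre-lox system, with Cre driven in the whole animal by a CMV promoter, so the knockout was global. Every line, WT included, carried the SV40 large T antigen used for immortalisation after passage 2, and was made from the body left once head and organs were taken away. The question was which transcripts differ when SLMAP3, a tail-anchored membrane protein of the STRIPAK phosphatase complex, is absent.

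IGF1 and IGF2 are small secreted hormones that bind the IGF1 receptor, a receptor tyrosine kinase that signals through the IRS adaptors, PI3K and AKT to support growth and survival. In the fluid around cells most IGF is held by IGF binding proteins, which keep it from the receptor, carry it, or release it when a protease cuts them. In embryonic fibroblasts the pathway has a textbook role, since fibroblasts without the IGF1 receptor resist transformation by the SV40 large T antigen. Fibroblasts themselves make several of the binding proteins, and the balance between ligand and binding proteins sets how much ligand reaches the receptor.

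The 6 binding proteins belong to a family held together by a cysteine-rich amino-terminal domain, which takes part in IGF binding. The stretch of the coding sequence that spells its signature is shown to let the members be compared. The signature searched for was 8 codons, for glycine, cysteine, glycine, cysteine, cysteine, any 2 residues and cysteine, which leaves 6 fixed positions. By the annotated transcripts of GENCODE M21, which use GRCm38 as the files do, Igfbp2, Igfbp3, Igfbp4 and Igfbp5 each held all 6 fixed positions. Igfbp7 held 5 of 6 in the window aligned on the same cysteine, and Igfbp6 held 3 of 6. The windows lie at chr1:72824766-72824813 on the plus strand (Igfbp2), chr11:7213554-7213601 on the minus strand (Igfbp3), chr11:99041638-99041685 on the plus strand (Igfbp4), chr1:72873954-72874001 on the minus strand (Igfbp5), chr15:102144704-102144751 on the plus strand (Igfbp6) and chr5:77407814-77407861 on the minus strand (Igfbp7), each inside 1 coding exon. They are given 5′ to 3′ on the coding strand, with the 8 codons in capitals.
Igfbp2: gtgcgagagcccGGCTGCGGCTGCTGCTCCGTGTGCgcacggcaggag
Igfbp3: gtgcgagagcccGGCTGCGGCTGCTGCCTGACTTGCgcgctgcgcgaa
Igfbp4: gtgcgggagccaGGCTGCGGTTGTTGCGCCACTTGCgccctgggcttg
Igfbp5: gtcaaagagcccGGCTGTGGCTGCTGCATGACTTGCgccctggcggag
Igfbp6: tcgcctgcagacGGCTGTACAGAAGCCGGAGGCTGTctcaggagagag
Igfbp7: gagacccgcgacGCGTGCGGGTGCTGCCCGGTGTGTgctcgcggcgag

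Other coding features also set the members apart. Codons for cysteine, tryptophan, cysteine and valine in a row, a mark of the thyroglobulin-type domain at the carboxy-terminal end, occurred once in each of Igfbp2 to Igfbp6 and not in Igfbp7. Of the 6 binding proteins, only Igfbp2 held codons for the integrin-binding triplet arginine, glycine and aspartate. The coding sequences ran from 238 codons for Igfbp6 to 313 for Igfbp7 and held 16 to 20 cysteine codons. On the map, Igfbp2 (chr1:72824503-72852474, plus strand) and Igfbp5 (chr1:72857932-72874884, minus strand) lie end to end, 5457 bases apart with no annotated gene between them. Igfbp3 (chr11:7206086-7213923, minus strand) lies 3539 bases from Igfbp1. Igfbp4 (chr11:99041244-99054392, plus strand), Igfbp6 (chr15:102144362-102149511, plus strand) and Igf1r (chr7:67952827-68233668, plus strand) overlap no other annotated gene. Igf1 (chr10:87858265-87937042, plus strand) overlaps the antisense gene Igf1os, and Igfbp7 (chr5:77349240-77408041, minus strand) overlaps Polr2b and Gm34648 on the other strand. The library kit kept strand, but whether the counting used it is not given in the sources used here.

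The libraries held 49879059 to 63322486 estimated counts per line. Slmap, the targeted gene, was at 32.7 to 44.3 CPM (TMM-normalised counts-per-million) in the SLMAP3-/- lines and at 124 to 143 CPM in the WT lines, without overlap, and its log2 fold change was -1.84 ± 0.11 (standard error, edgeR adjusted p = 0.00119). Of the 12 fibroblast markers examined, all passed the filter, with a summed level of 17100 to 23000 CPM in the SLMAP3-/- lines and 20300 to 25400 CPM in the WT lines, although decorin (Dcn) reached at most 14.8 CPM. Pecam1, Cdh5, Ptprc, Adgre1, Krt14 and Myog, which define endothelial, blood, epithelial and muscle cells, each stayed at or below 0.227 CPM in every line, and Hbb-bs and Myod1 were at 0. Other genes of those lists were detected, among them Kdr (up to 28.4 CPM), Tek (up to 12.2 CPM), Cd68 (up to 4.70 CPM) and Krt18 (up to 3.72 CPM). In the SLMAP3-/- and WT lines respectively, the lists summed to 16.6 to 40.5 and 9.47 to 27.5 CPM (endothelial), 1.47 to 4.72 and 1.12 to 5.84 CPM (epithelial), 2.54 to 5.50 and 2.16 to 3.62 CPM (macrophage and blood), 0.173 to 0.353 and 0.290 to 0.442 CPM (skeletal muscle), 19.2 to 54.1 and 28.8 to 66.2 CPM (cartilage), and 85.5 to 178 and 113 to 436 CPM (neural, mainly Nes). The smooth muscle list, led by Acta2, summed to 1880 to 4330 and 2080 to 4740 CPM, and the proliferation list to 1970 to 2610 and 1870 to 2160 CPM. Y-linked genes summed to 208 CPM in SLMAP3-/- replicate 2 and 211 CPM in WT replicate 3 and to at most 0.0803 CPM in the other 6 lines.

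None of the 8 members differed between SLMAP3-/- and WT MEFs after adjustment over all tested genes (edgeR quasi-likelihood test, adjusted p = 1.00 for each). In that test 0.00647% of all tested genes were called, which was Slmap alone. DESeq2 called 0.0636% of its tested genes and 0 of 8 members, and limma-voom called 0 of 8. At an unadjusted p under 0.05, 1 of 8 members (Igfbp4) passed, against 1.81% of all tested genes. For 0 of 8 members did the 4 SLMAP3-/- lines and the 4 WT lines form groups without overlap, against 1.25% of all tested genes. The fitted log2 fold changes of the members ran from -1.42 for Igfbp6 to 1.45 for Igfbp4, 4 above and 4 below 0, with a median of -0.06, beside a median of -0.0014 over all tested genes. These are bulk libraries, in which fewer cells of a type and less RNA per cell cannot be told apart. The plot of the members by line shows how far the lines of 1 genotype lay from each other.

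**Figure D1:**
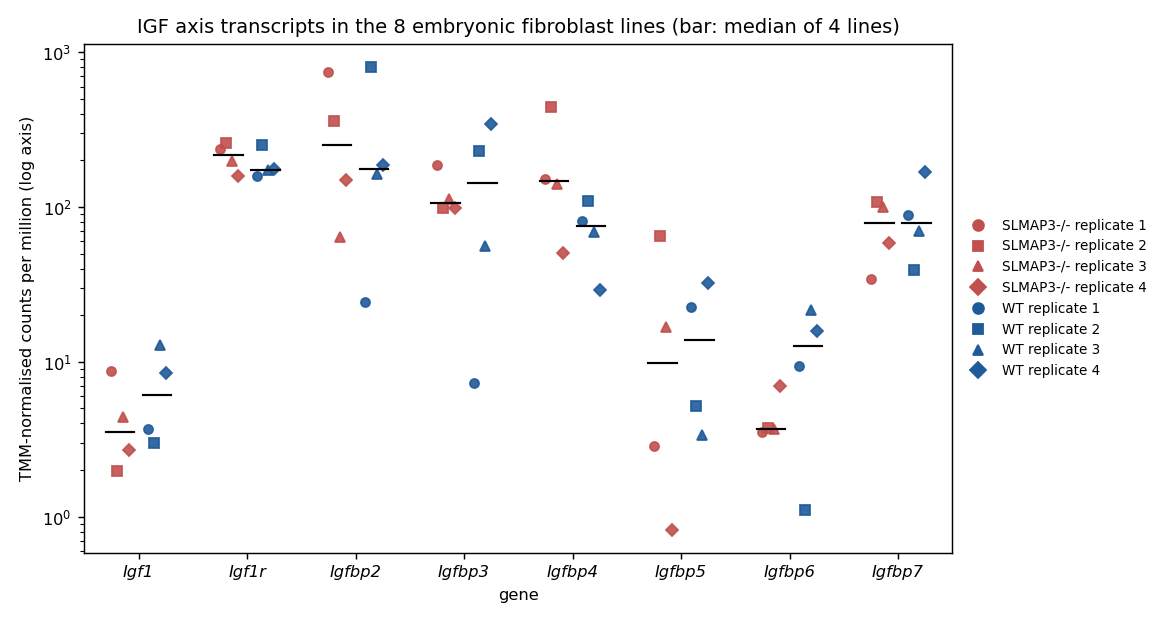
Normalised CPM (log axis) of the 8 members in each line, with SLMAP3-/- lines in red and WT lines in blue, a marker shape for each replicate number and a bar at the median of 4 lines. Igf1r stayed between 158 and 260 CPM in all 8 lines, while Igfbp5 ran from 0.825 to 65.1 CPM, and no member separated the genotypes.

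Igf1, the only ligand among the 8 members, was transcribed at a low level in all 8 lines. It was at 8.78, 1.96, 4.40 and 2.68 CPM in SLMAP3-/- replicates 1 to 4, and at 3.69, 2.98, 12.9 and 8.48 CPM in WT replicates 1 to 4, which rested on 98 to 683 estimated counts per line. The highest line was WT replicate 3 and the lowest SLMAP3-/- replicate 2, and the groups overlapped. The mean of the SLMAP3-/- lines was 4.46 ± 3.06 CPM and that of the WT lines 7.02 ± 4.63 CPM (SD, n = 4 each). The log2 fold change was -0.65 with a 95% interval from -2.01 to 0.70 (two-sided exact permutation test of the single gene, p = 0.400, where 0.0286 is the smallest value that 4 against 4 lines allow). The interval spans from 0.248-fold to 1.63-fold of the WT level, so a change of moderate size in either direction could not be seen with these lines.

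Igf1r, the receptor tyrosine kinase of the pathway, was the most even of the 8 members across the lines. Its level was 235, 260, 198 and 158 CPM in SLMAP3-/- replicates 1 to 4, and 159, 249.9, 173 and 176 CPM in WT replicates 1 to 4. SLMAP3-/- replicate 2 and WT replicate 2 were the highest of the lines, and the highest of all 8 was 1.65-fold above the lowest. The log2 fold change of 0.17 had a 95% interval from -0.27 to 0.61, or 0.8293-fold to 1.52-fold of WT (exact permutation p = 0.457). Of the members Igf1r had the narrowest interval.

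Igfbp2, a binding protein that holds IGF2 and IGF1 and can also bind integrins, reached the highest level of any member in a single line. It was at 745, 358, 64.3 and 148 CPM in SLMAP3-/- replicates 1 to 4, and at 24.2, 801, 164 and 187 CPM in WT replicates 1 to 4. The pair of highest lines and the pair of lowest lines each held 1 line of either genotype, and the 33.0-fold range among WT lines alone was far wider than the gap between the genotype means of 329 ± 303 and 294 ± 345 CPM (SD, n = 4 each). Between the genotypes the log2 fold change was 0.16 (95% interval -2.11 to 2.43, exact permutation p = 0.743). It was -0.63 without SLMAP3-/- replicate 1 and 1.40 without WT replicate 2, the highest line of each genotype.

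Igfbp3, the main carrier of IGF in blood together with the acid-labile subunit, ranged more widely among the WT lines than among the SLMAP3-/- lines. The SLMAP3-/- replicates 1 to 4 were at 186, 98.3, 113 and 98.1 CPM, and the WT replicates 1 to 4 at 7.35, 228.5, 56.2 and 344 CPM. All 4 SLMAP3-/- lines fell inside the range of the WT lines, which reached 46.8-fold, against 1.89-fold among SLMAP3-/- lines. A test of that difference in spread was not made. The log2 fold change of -0.36 (95% interval -2.36 to 1.63, exact permutation p = 0.771) turned to 0.35 without WT replicate 4. The difference of the mean log2 levels was 0.66, of the other sign, since WT replicate 1 weighs more on the log scale. WT replicate 1 was also the line with the lowest Pdgfra, a fibroblast marker, at 17.4 CPM, where the highest line had 179 CPM. Its summed fibroblast list of 20700 CPM lay within the range of the other lines, and it had the highest Nes, at 409.7 CPM against at most 155 CPM elsewhere. The part of these differences in the values of Igfbp2 and Igfbp3 was not tested.

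Igfbp4, which restrains IGF until the protease PAPP-A cuts it, gave the lowest p-value of the 8. It was at 151, 445, 142 and 50.1 CPM in SLMAP3-/- replicates 1 to 4, and at 80.9, 110, 68.9 and 29.2 CPM in WT replicates 1 to 4. SLMAP3-/- replicates 1, 2 and 3 were above every WT line, and SLMAP3-/- replicate 4 was below 3 of the WT lines. The log2 fold change was 1.45 (95% interval 0.00018 to 2.89, unadjusted edgeR p = 0.04998, adjusted p = 1.00, exact permutation p = 0.229). Without SLMAP3-/- replicate 2, 1 of the pair of lines with Y-linked expression, it was 0.67 (unadjusted p = 0.215 in edgeR's fit across all genes, adjusted p = 1.00), and with Y-linked expression as a covariate it was 1.15 (unadjusted p = 0.109, adjusted p = 1.00).

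Igfbp5, a matrix-associated binding protein, had the widest range of all the members. Its level was 2.86, 65.1, 16.7 and 0.825 CPM in SLMAP3-/- replicates 1 to 4, and 22.5, 5.22, 3.37 and 32.2 CPM in WT replicates 1 to 4. The highest and the lowest of all 8 lines were both SLMAP3-/- lines, 79.0-fold apart. A log2 fold change of 0.43 had a 95% interval from -2.31 to 3.18 (exact permutation p = 0.714). It was -1.22 without SLMAP3-/- replicate 2. The line with the lowest level of its neighbour Igfbp2, WT replicate 1, had the third highest Igfbp5, and across the 8 lines the pair gave r = -0.24 (exact permutation p = 0.555).

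Igfbp6, a binding protein with a preference for IGF2, had the most negative fold change. In SLMAP3-/- replicates 1 to 4 it was at 3.55, 3.72, 3.70 and 6.98 CPM, and in WT replicates 1 to 4 at 9.38, 1.10, 21.6 and 15.8 CPM. WT replicates 1, 3 and 4 were above every SLMAP3-/- line, and WT replicate 2 was the lowest of all 8 lines. The means were 4.49 ± 1.66 and 11.97 ± 8.79 CPM (SD, n = 4 each), with a log2 fold change of -1.42 (95% interval -3.03 to 0.20, unadjusted edgeR p = 0.0778, adjusted p = 1.00, exact permutation p = 0.486). Without WT replicate 2, that lowest line, it was -1.79 (edgeR adjusted p = 1.00, unadjusted p = 0.00122). Without WT replicate 3, the highest line, it was -0.96 (edgeR unadjusted p = 0.219), and in limma-voom it was -0.89 (unadjusted p = 0.354). The unadjusted p was under 0.05 in 3 of 17 alternative fits.

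Igfbp7, a secreted relative that binds IGF weakly and insulin more strongly, was evenly placed in both genotypes. It was at 34.1, 108, 99.6 and 58.6 CPM in SLMAP3-/- replicates 1 to 4, and at 88.8, 39.3, 69.7 and 167 CPM in WT replicates 1 to 4. The medians were 79.1 and 79.3 CPM, and the lowest and highest lines were SLMAP3-/- replicate 1 and WT replicate 4. Its log2 fold change was -0.28 (95% interval -1.37 to 0.81, exact permutation p = 0.686) and 0.19 without WT replicate 4.

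**Figure D2:**
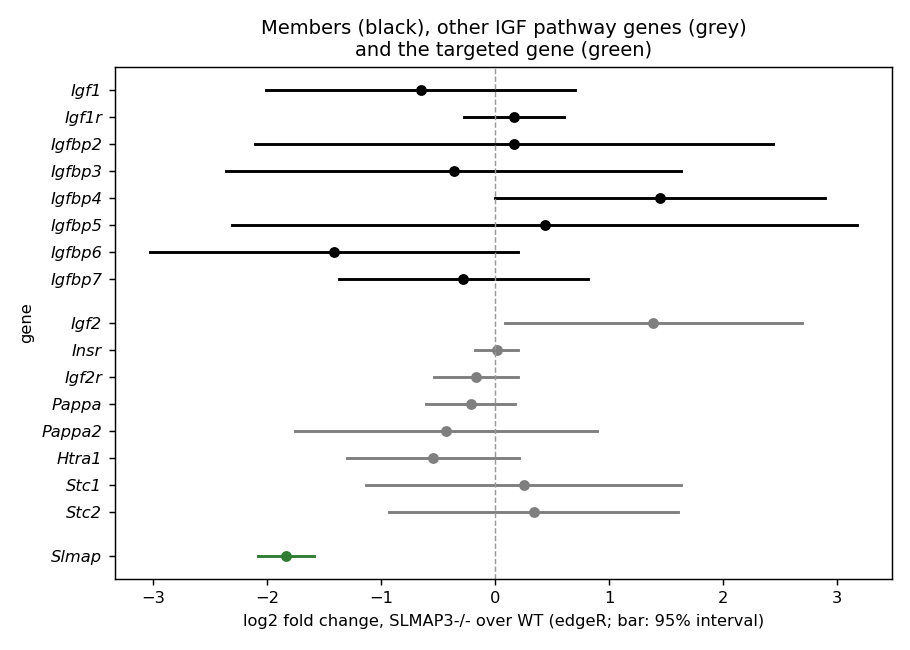
Log2 fold change of SLMAP3-/- over WT with its 95% interval from edgeR, for the 8 members in black, 8 other IGF pathway genes in grey and Slmap in green. The interval of Slmap (-2.09 to -1.59) lies clear of 0, that of Igfbp4 touches 0 at 0.00018, and those of the other members include 0.

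Levels of different genes were compared per length, as CPM per kb of the longest protein-coding transcript. On this scale Igfbp2 stood first with a mean of 238 CPM per kb over the 8 lines, followed by Igfbp7 (69.3), Igfbp3 (58.4), Igfbp4 (35.1), Igf1r (17.6), Igfbp6 (7.40), Igfbp5 (3.10) and Igf1 (0.814). The ranges over the lines overlapped for every pair of neighbours in that order. For the step from Igf1r to Igfbp6 the mean log2 ratio of 1.74 was larger than its SD between lines of 1.61, and Igf1r was above Igfbp6 in 7 of 8 lines. For the other neighbours the mean log2 ratio was below its SD, for example 1.22 against an SD of 2.22 for Igfbp2 over Igfbp7. Igf1 and Igfbp4 depend most on the transcript length taken: with the median length of their coding transcripts Igf1 would be at 4.20 CPM per kb, above Igfbp5, and Igfbp4 at 181.5 CPM per kb and second in the order.

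The mix of binding proteins differed from line to line. Summed over the 6 genes, the level ran from 222 to 718 CPM per kb in SLMAP3-/- lines and from 129 to 770 CPM per kb in WT lines. Igfbp2 made up 79.4, 51.2, 22.2 and 51.0% of that sum in SLMAP3-/- replicates 1 to 4, and 14.4, 79.5, 51.3 and 31.6% in WT replicates 1 to 4. It was the leading binding protein in 6 of 8 lines, and Igfbp7 led in the other two, SLMAP3-/- replicate 3 (37.4%) and WT replicate 1 (57.4%). The leader depended on the length taken: with the median coding length Igfbp2 led in 4 lines, Igfbp4 in 3 and Igfbp3 in 1, and with the union of exons Igfbp2 led in 5 and Igfbp7 in 3. Igfbp3 took 2.36 to 31.5%, Igfbp4 1.69 to 21.7% (7.39 to 56.3% with the median coding length), Igfbp6 0.129 to 7.92% and Igfbp5 0.0617 to 2.91%. Per 100 units of summed binding protein, Igf1 stood at 0.052 to 0.281 units in SLMAP3-/- lines and at 0.0548 to 0.748 in WT lines. The Igf1 transcript was far below the sum of the binding proteins in every line, though it was above Igfbp5 in 3 of 8 lines. With the median length of the coding transcripts the Igf1 ranges were 0.134 to 0.818 and 0.22 to 2.75 units. This comparison left out the other ligand, Igf2, which was at 17.1 to 162 CPM over the 8 lines. Its mean, not taken per length, was 53.1 CPM, against 5.74 CPM for Igf1.

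**Figure D3:**
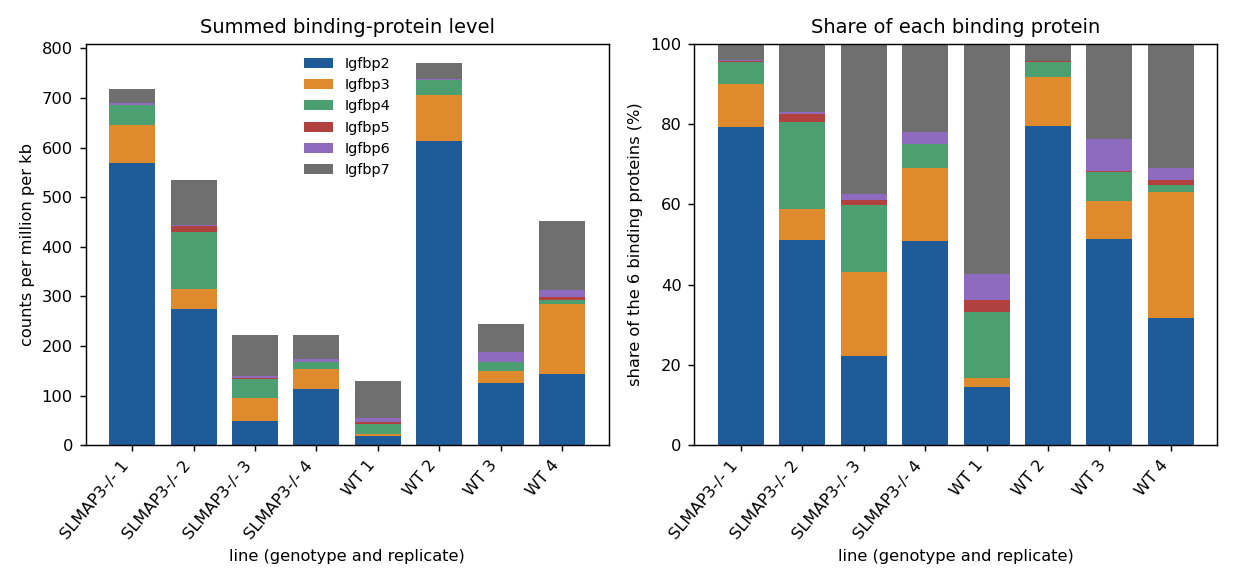
Stacked levels of the 6 binding proteins in each line, as CPM per kb on the left and as the share of their sum in percent on the right, per kb of the longest coding transcript. Igfbp2 fills 79.4 and 79.5% of the bars of SLMAP3-/- replicate 1 and WT replicate 2, and Igfbp7 fills 57.4% of that of WT replicate 1.

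Most of the members stood high among all tested genes by how much they varied within a genotype, with Igf1r the lowest of the 8. The SD of the log2 level about the genotype means was 2.24 for Igfbp5, 1.82 for Igfbp2, 1.79 for Igfbp3, 1.39 for Igfbp6, 1.08 for Igfbp4, 0.96 for Igf1, 0.82 for Igfbp7 and 0.30 for Igf1r. The median over all tested genes was 0.28. Igfbp5 stood at the 99.1th percentile of all tested genes, Igfbp2 at the 98.1th, Igfbp3 at the 98.0th, Igfbp6 at the 96.0th and Igfbp4 at the 92.4th. Igf1r stood at the 54.0th. Set against the 9537 tested genes with a mean of at least 10 CPM, whose median SD was 0.20, Igf1r stood at the 75.8th percentile and the other members at the 96.2th to the 99.6th. By genotype, the SD of Igfbp3 was 0.44 in SLMAP3-/- lines and 2.50 in WT lines, that of Igfbp6 was 0.46 and 1.91, and that of Igfbp5 was 2.75 and 1.58.

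**Figure D4:**
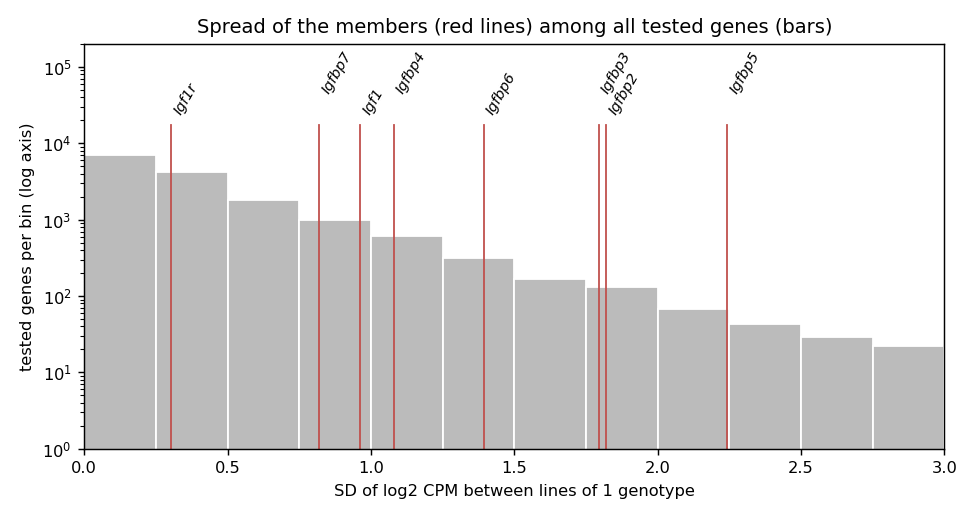
Number of tested genes (log axis) by the SD of their log2 CPM between lines of 1 genotype, with red lines at the 8 members. The axis ends at 3, beyond which 47 genes lie; Igf1r is near the bulk at 0.30, and Igfbp2, Igfbp3 and Igfbp5 are in the tail at 1.79 to 2.24.

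Relations between the members across the 8 lines were then examined for all 28 pairs, as Pearson's r and Spearman's rho of log2 CPM with exact permutation p-values. None passed 0.05 after Benjamini-Hochberg adjustment over the 28 pairs, with a lowest adjusted p of 0.238 for r and 0.428 for rho, while 5 pairs had an unadjusted p under 0.05 for r. Igf1r and Igfbp4 gave r = 0.77 (exact permutation p = 0.0193) and rho = 0.76 (exact permutation p = 0.0368), and r was 0.67 without SLMAP3-/- replicate 2 and WT replicate 2. Igf1r and Igfbp2 gave r = 0.75 (exact permutation p = 0.0340) and rho = 0.74 (exact permutation p = 0.0458), with r = 0.655 without the same pair of lines. Igf1r and Igfbp6 ran in opposite directions, with r = -0.76 (exact permutation p = 0.0294) and rho = -0.64 (exact permutation p = 0.0962), and r = -0.62 without those lines.

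Igfbp5 and Igfbp7 gave r = 0.73 (exact permutation p = 0.0425) and rho = 0.83 (exact permutation p = 0.0154), and r rose to 0.86 without SLMAP3-/- replicates 2 and 4. Igfbp2 and Igfbp3 gave r = 0.75 (exact permutation p = 0.0284) and rho = 0.67 (exact permutation p = 0.0831). That relation rested on WT replicates 1 and 2, without which r was 0.25. With the genotype means taken out, r of these 5 pairs was 0.76, 0.75, -0.74, 0.73 and 0.74 in the order given. Within a genotype 4 lines were too few for a correlation. Igf1 gave no unadjusted p under 0.05 with any other member, and its r with Igf1r was -0.28.

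**Figure D5:**
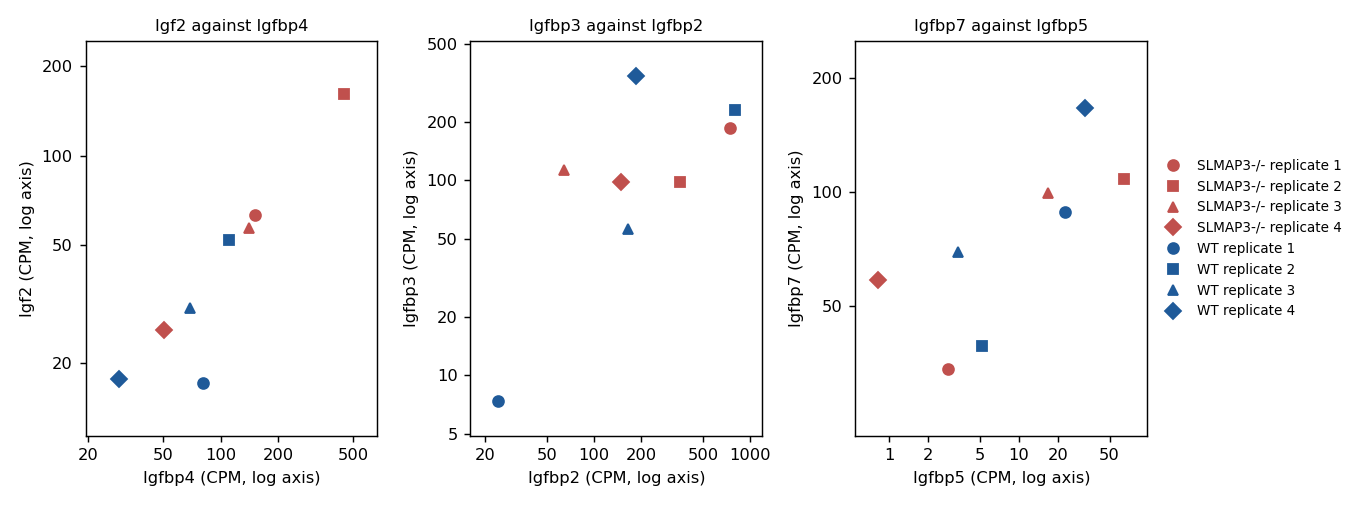
Levels of Igf2 against Igfbp4, of Igfbp3 against Igfbp2 and of Igfbp7 against Igfbp5 in the 8 lines (CPM, log axes), with SLMAP3-/- lines in red and WT lines in blue. SLMAP3-/- replicate 2 is highest for both Igfbp4 (445 CPM) and Igf2 (162 CPM), and WT replicate 1 is lowest for both Igfbp2 (24.2 CPM) and Igfbp3 (7.35 CPM).

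For each member the 3 genes with the most similar pattern were taken from the 9537 tested genes with a mean of at least 10 CPM, the member itself left out, by r over the 8 lines. With so many candidates and 8 lines a high r is found for any gene, so these are descriptions without a test. Igfbp4 was followed by Gsto1 (r = 0.93), Igf2 (r = 0.92) and Aig1 (r = 0.91), so that the second closest of 9536 genes was the other IGF ligand. Without SLMAP3-/- replicate 2 and WT replicate 4, r of Igfbp4 and Igf2 was 0.79. Igfbp2 was followed by Mgat1 and Cavin3 (both r = 0.99) and Sema6a (r = 0.975), and Igfbp3 by Kcnk3 (r = 0.985), Map1lc3a and Chn1 (both r = 0.96). Igf1 was followed by Papss1 (r = 0.99), Lrrc49 (r = 0.97) and Gmcl1 (r = 0.96), and Igf1r by Nsmce1 (r = 0.97), Cables1 (r = 0.96) and Rbm42 (r = 0.95). Igfbp5 was followed by 1810058I24Rik (r = 0.94), Atp6v1b2 and Atg101 (both r = 0.93), Igfbp6 by Ift172 (r = 0.96), Rmi1 (r = 0.95) and Fbxo7 (r = 0.94), and Igfbp7 by Slc16a10 (r = 0.95), Fam50a and Pdzd2 (both r = 0.93). Igf1r, Igfbp2, Igfbp3, Igfbp4, Igfbp5 and Igfbp7, the members above that level, were not among the 3 closest genes of another member, while Igf1 and Igfbp6 were below it and could not be.

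Among the other ligands and receptors, Igf2, the fetal growth factor and an imprinted gene, gave a second unadjusted p under 0.05. Of all tested genes, 1.81% did so. It was at 62.96, 162, 57.1 and 25.8 CPM in SLMAP3-/- replicates 1 to 4, and at 17.1, 52.0, 30.7 and 17.7 CPM in WT replicates 1 to 4. SLMAP3-/- replicates 1, 2 and 3 were above every WT line, as for Igfbp4, and SLMAP3-/- replicate 4 lay between WT lines. The log2 fold change was 1.39 (95% interval 0.08 to 2.69, unadjusted edgeR p = 0.0396, adjusted p = 1.00, exact permutation p = 0.114). In limma-voom, or in edgeR with Y-linked expression as a covariate, Igf2 did not reach an unadjusted p under 0.05. The same held in edgeR without SLMAP3-/- replicate 1, SLMAP3-/- replicate 2 or WT replicate 4. Insr, the insulin receptor, was even, at 39.6 to 47.1 CPM in all lines, with a log2 fold change of 0.01 (95% interval -0.18 to 0.20). Igf2r, which clears IGF2 from the cell surface, had a log2 fold change of -0.17 (95% interval -0.54 to 0.20), at 213 to 356 CPM. Insrr, an insulin receptor-related gene, was at no more than 0.17 CPM and was not tested.

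The remaining binding proteins were silent or nearly so. Igfbp1 had 0 counts in each of the 8 lines, which allows at most 0.0481 to 0.0600 CPM per line when 3 counts are taken as the limit, a bound that covers counting error only. Igfals, the acid-labile subunit that joins IGF1 and IGFBP3 or IGFBP5 in blood, and Igfbpl1 stayed at or below 0.034 CPM. Of the proteases and their inhibitors, Pappa, which cuts IGFBP4 and IGFBP5, was at 58.3 ± 5.25 CPM in SLMAP3-/- lines and 67.6 ± 16.5 CPM in WT lines (SD, n = 4 each; log2 fold change -0.21, 95% interval -0.61 to 0.18). Its relative Pappa2 was at 0.113 to 1.14 CPM. Htra1, a serine protease that can cut IGFBP5, was at 44.6 ± 13.9 and 65.3 ± 27.4 CPM (SD, n = 4 each; log2 fold change -0.55, 95% interval -1.30 to 0.20). The PAPP-A inhibitors Stc1 and Stc2 had log2 fold changes of 0.25 (95% interval -1.14 to 1.63) and 0.34 (95% interval -0.93 to 1.61).

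Of the 41 other IGF pathway genes examined, 37 could be tested. In edgeR's test 0 of the 37 were called in either direction after adjustment, against 0.00647% of all tested genes. An unadjusted p under 0.05 was found for 1 of the 37, Igf2, against 1.81% of all tested genes. DESeq2 and limma-voom also called 0 of them. Their median log2 fold change was 0.0049, with 19 above and 18 below 0. All 10 adaptors, from Grb14 (log2 fold change -0.05) to Irs2 (0.24), and all 13 genes from PI3K to mTOR, of which Pik3cb had the lowest log2 fold change (-0.09), stayed without a call. The 3 FoxO factors ran from -0.19 (Foxo1) to -0.07 (Foxo4), and the 3 IGF2 mRNA-binding proteins from 0.06 (Igf2bp1) to 0.42 (Igf2bp2), with no call either. The median SD of log2 CPM between lines of 1 genotype was 0.19 for the genes from PI3K to mTOR, 0.25 for the adaptors and 0.96 for the proteases and their inhibitors, beside 1.24 for the 8 members, and the SD of Igf2 was 0.94.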

How the data were processed

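Total RNA of 8 immortalised MEF lines (4 SLMAP3-/- and 4 WT) was made into stranded mRNA libraries, 1 per line. The deposited gene table holds estimated counts that the authors made by assigning reads to the GENCODE M25 transcriptome of GRCm38 with Salmon and scaling for transcript length. Versions are not given in the sources used here. A second table holds the authors' own DESeq2 comparison (mean count, log2 fold change, standard error, p-values) and was not used.

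Estimated counts were rounded, filtered with filterByExpr (minimum count 10), normalised by TMM and tested over all 15461 genes that passed with edgeR 4.0.16 (quasi-likelihood, R 4.3.3) and Benjamini-Hochberg adjustment at 0.05. Log2 levels used a prior count of 2. Because the values are already scaled for length, CPM per kb of the longest coding transcript is an approximate scale that moves with the length taken. The fits were also run on simulated data, and the outcome of that run is not reported here. Alternatives were DESeq2 1.42.0, limma-voom 3.58.1, other scaling, filters and rounding, a Y-linked covariate, a replicate block and leaving out each line. With 4 lines per genotype, the p-values of the genotype comparison set the difference between genotypes against the spread between lines.

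The named genes were the 8 members, Slmap, the ligands, receptors, binding proteins, proteases and inhibitors of the pathway, the extremes of its other groups (1 of them is not reported here), and the 3 genes most like each member. Members and lists were chosen with earlier results of these data known. Pdgfra, Nes, Dcn and the other single markers were picked for mention after their values were seen. Gene positions and coding sequences are from GENCODE M21 on GRCm38, in which the IDs of all 8 members matched those of the counts.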

Additional observations from a re-analysis of the deposited data

Results flagged for a closer look

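In the 16 sets of 4 lines (8 members in each genotype), 2 held a line that stood apart from its group by Dixon's ratio of gap to range above the 95% critical value for 4 samples. For normally distributed values chance gives about 1 in 20 such sets, or 0.8 of 16. The ratio was taken on CPM and not on log2 levels, and whether that rate holds for CPM was not tested. Igfbp3 in SLMAP3-/- replicate 1 was at 186 CPM, with the other SLMAP3-/- lines at 98.1 to 113 CPM (ratio 0.835). Igfbp6 in SLMAP3-/- replicate 4 was at 6.98 CPM, with the other SLMAP3-/- lines at 3.55 to 3.72 CPM (ratio 0.949). Both lines lay inside the range of the WT lines for that gene.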

How the results depend on the processing

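No member was called under any of the 17 alternative fits of each fold change, and the lowest adjusted p of a member was 0.786, with no filter on low counts. Igfbp4 had an unadjusted p of 0.00291 with the replicate block and 0.0134 in DESeq2, and Igfbp6 one of 0.0267 in DESeq2, with adjusted p = 1.00 in each. The number of tested genes called was 11 in DESeq2 and 0 with a replicate block, against 1 otherwise. The replicate numbers 1 to 4 name lines from different embryos, and same-numbered lines did not deviate together (r = -0.157, 0.058, 0.187 and -0.003), so the block pairs lines by number only. The direction changed for Igfbp3 in limma-voom (0.66) and with the replicate block (0.34), and for Igfbp5 in limma-voom (-0.65), with the replicate block (-0.43) and with Y-linked expression as a covariate (-0.84); the cause was not tested. Leaving out 1 line each gave log2 fold changes from -0.63 to 1.40 for Igfbp2, -0.76 to 0.35 for Igfbp3, -1.22 to 1.03 for Igfbp5 and -0.53 to 0.19 for Igfbp7, which include both signs, among them -0.22 without WT replicate 1 and -0.03 without WT replicate 3 for Igfbp2. The ranges were -1.22 to -0.18 for Igf1, 0.06 to 0.33 for Igf1r, 0.67 to 1.77 for Igfbp4 and -1.79 to -0.96 for Igfbp6. The r of Igfbp5 and Igfbp6 across lines went from 0.03 to -0.019 on residuals. With 4 lines a genotype and this spread, differences of several fold in either direction are within the intervals of Igfbp2, Igfbp3 and Igfbp5. The other intervals were 1.00-fold to 7.435-fold of WT for Igfbp4, 0.123-fold to 1.15-fold for Igfbp6 and 0.386-fold to 1.755-fold for Igfbp7.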
